A study of Mus musculus with 6 samples.

Results

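A set of 9 secreted proteins of the liver, called hepatokines, were followed at the transcript level in mouse primary hepatocytes exposed to LRG1. The 9 genes, taken by name out of 22609 gene rows, were Sepp1, Ahsg, Fetub, Gdf15, Hgfac, Lect2, Enho, Angptl4 and Angptl6; Fgf21 and Igf1 were left out. The cells were hepatocytes, the parenchymal cells of the liver, from male C57BL/6 mice aged 4 months and of wild type, and mRNA enriched with oligo(dT) was sequenced in 6 libraries. The LRG1 group, 3 libraries, received LRG1 protein at 20 µg/mL for 16 h, and the PBS group, 3 libraries, received phosphate-buffered saline for the same time. LRG1, leucine-rich alpha-2-glycoprotein 1, is itself a secreted glycoprotein, and the study tests what it does to gene expression in these cells. The labels do not say whether the libraries of a group came from separate mice, so p-values measure the spread between these libraries only, which may be technical.

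Hepatokines are proteins that hepatocytes release into blood and that act on other organs or on the liver itself. Several are tied to nutrition and insulin action: fetuin-A (Ahsg) can inhibit the insulin receptor, selenoprotein P (Sepp1) carries selenium and has been linked to insulin resistance when abundant, and adropin (Enho) is a small peptide tied to energy balance. Others answer to stress or act on lipid and growth pathways, such as GDF15, which reduces appetite through a brainstem receptor, ANGPTL4, which inhibits lipoprotein lipase, and HGFAC, a protease that activates hepatocyte growth factor.

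Every library held between 18625748 and 23036332 gene counts. Levels are given in CPM, counts per gene scaled to one common library size with TMM, a correction for library composition. Markers of hepatocytes, the labelled cell type, and of other liver cells were looked up, and their sums do not measure the purity of the cells. The summed level of 10 hepatocyte markers, albumin among them, was 48453 to 49272 CPM in LRG1 libraries and 48668 to 49707 CPM in PBS libraries. Most of that sum came from Alb, with means of 18555 CPM with LRG1 and 19235 CPM with PBS, and from Trf, the transferrin gene, with 24127 CPM with LRG1 and 22067 CPM with PBS. Singly, 5 of the 10 hepatocyte markers fell, 1 rose (Trf) and 4 did not pass an adjusted p of 0.05 in edgeR. Among all 12301 tested genes 25.8% fell and 25.5% rose. Cps1, the first enzyme of the urea cycle, had 8.44 ± 1.58 CPM with LRG1 and 36.3 ± 2.82 CPM with PBS (4.32-fold lower). Fgb, the fibrinogen beta chain, was 1.72-fold lower, Apoa1 1.54-fold, Hnf4a 1.23-fold and Cyp2e1 1.14-fold. Sepp1 and Ahsg were also lower, as were 25.8% of all tested genes. The 10 markers of macrophages summed to 188 to 214 CPM in LRG1 libraries and 227 to 272 CPM in PBS libraries. Most of that was Cd68, which fell, as did Cd5l. Marco rose, 6 did not pass and 1 was too scarce to be tested. The 10 markers of liver endothelium summed to 47.3 to 48.2 CPM with LRG1 and 48.8 to 53 CPM with PBS. Among them Stab2 was 2.04-fold and Lyve1 2.24-fold lower, Eng was 1.34-fold higher, 5 did not pass and 2 were too scarce to be tested. The 10 markers of stellate cells and fibroblasts summed to 150 to 162 CPM with LRG1 and 52.8 to 59.2 CPM with PBS, and Col1a1 alone had 110.2 ± 4.96 CPM with LRG1 and 11.18 ± 2.3 CPM with PBS. Of the other 9 stellate markers Acta2 was higher, Reln lower, 4 did not pass and 3 were too scarce to be tested. The 8 cholangiocyte markers summed to 4327 to 4643 CPM with LRG1 and 4448 to 4632 CPM with PBS, nearly all Spp1, which did not pass. Krt19, a keratin of bile duct cells, had 3.24 ± 0.248 CPM with LRG1 and 18.4 ± 3.07 CPM with PBS (5.66-fold lower), and Sox9 had 84.3 ± 2.004 CPM with LRG1 and 52.6 ± 0.498 CPM with PBS. The other cholangiocyte markers did not pass or, for 4 of them, were too scarce to be tested. No listed marker was at 0 in every library, and the part of these cell types in the results below was not tested. In bulk samples, fewer cells that make a transcript and less of it per cell cannot be told apart.

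The promoter sequences of 4 of the genes are shown because Sepp1 and Ahsg were the most abundant hepatokine transcripts and fell, Lect2 rose, and Fetub, the neighbour of Ahsg on chromosome 16, did not pass the test. Each runs 5′ to 3′ from 250 bases before the annotated start to 50 bases after it, and is from RefSeq on build GRCm38.p6, whereas the counts were made on mm9. Capitals mark matches, on either strand, to 5 motifs: the C/EBP motif TTGCNNAA, the HNF1 motif GTTAAT, the nuclear receptor motif AGGTCA, the forkhead motif TGTTTAC and the SMAD motif CAGACA.
Sepp1, chr15:3270517-3270816, strand +: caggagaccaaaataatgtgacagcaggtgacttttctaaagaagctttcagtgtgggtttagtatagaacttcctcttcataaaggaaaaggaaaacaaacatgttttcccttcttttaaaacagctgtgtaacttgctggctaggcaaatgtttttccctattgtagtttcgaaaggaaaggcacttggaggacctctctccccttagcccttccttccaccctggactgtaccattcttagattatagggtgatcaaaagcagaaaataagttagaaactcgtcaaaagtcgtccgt
Ahsg, chr16:22891765-22892064, strand +: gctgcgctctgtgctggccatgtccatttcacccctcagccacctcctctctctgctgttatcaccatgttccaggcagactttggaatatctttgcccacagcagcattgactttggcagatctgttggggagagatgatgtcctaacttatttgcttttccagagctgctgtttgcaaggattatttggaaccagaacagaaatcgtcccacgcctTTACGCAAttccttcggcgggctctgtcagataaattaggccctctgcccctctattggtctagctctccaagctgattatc
Fetub, chr16:22918132-22918431, strand +: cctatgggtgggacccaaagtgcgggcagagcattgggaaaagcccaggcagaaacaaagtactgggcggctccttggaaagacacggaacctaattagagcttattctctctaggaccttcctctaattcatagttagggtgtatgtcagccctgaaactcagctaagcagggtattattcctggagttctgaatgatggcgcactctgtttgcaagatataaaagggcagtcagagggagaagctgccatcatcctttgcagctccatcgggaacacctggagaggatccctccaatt
Lect2, chr13:56548489-56548788, strand -: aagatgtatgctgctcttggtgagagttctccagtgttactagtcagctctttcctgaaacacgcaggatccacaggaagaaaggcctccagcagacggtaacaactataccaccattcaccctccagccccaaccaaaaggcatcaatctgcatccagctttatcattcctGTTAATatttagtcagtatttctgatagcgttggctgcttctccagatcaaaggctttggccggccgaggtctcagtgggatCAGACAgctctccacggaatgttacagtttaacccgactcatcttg

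In the Ahsg window 1 C/EBP match was found, a motif present in 10.8% of 32841 promoter windows of this length. The Lect2 window held 1 HNF1 motif, found in 7.1% of windows, and 1 SMAD motif, found in 21% of windows. No match was found in the windows of Fetub and Sepp1, which says only that these letters are not in them. Of the windows not printed, those of Gdf15 and Hgfac each held 1 HNF1 motif and 1 nuclear receptor motif, a motif found in 16.3% of windows, and that of Angptl6 held none. The table gives 3 starts for Sepp1, of which the window at the annotated principal start is shown, and 2 for Fetub. Sequences were matched for 7 of the 9 genes, and Enho and Angptl4 are only named here.

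**Figure D1:**
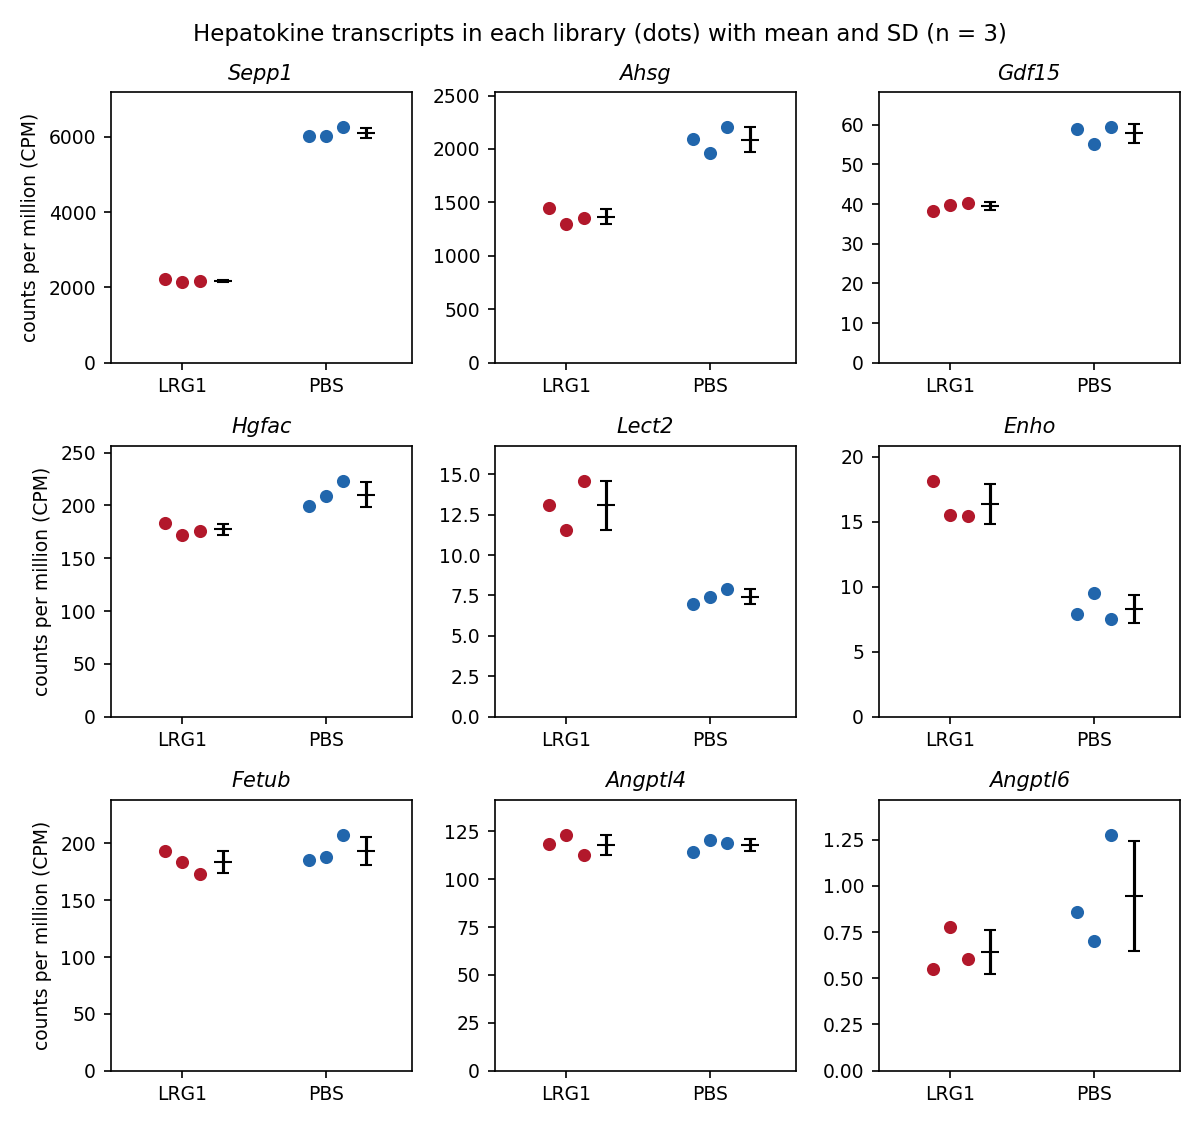
Level of each of the 9 hepatokine transcripts in every library, in CPM on a linear axis that starts at 0. Dots are libraries, LRG1 in red on the left and PBS in blue on the right, and the black bar is the mean with its SD (n = 3). For Sepp1 the LRG1 libraries sit at 2153 to 2212 CPM and the PBS libraries at 6019 to 6255 CPM; Fetub, Angptl4 and Angptl6 overlap between the groups.

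Of the 9 hepatokine transcripts, 6 changed with LRG1. Sepp1, Ahsg, Gdf15 and Hgfac fell, Lect2 and Enho rose, and Fetub, Angptl4 and Angptl6 did not pass the threshold, an adjusted p of 0.05 in edgeR's quasi-likelihood test over all genes. All 9 had enough counts to be tested. The count stands against a wide response: of 12301 tested genes 51.4% passed, 25.5% of the tested genes being higher and 25.8% lower with LRG1. The share of hepatokines that passed was 66.7%, and so high a background leaves nothing particular to the hepatokines in that count. The median log2 fold change of the 9 genes was -0.25, against 0.0093 for all tested genes. The values of the LRG1 and PBS libraries did not overlap for 6 hepatokines, and for 57.6% of all tested genes. Every list count below stands against the same shares of all tested genes, 25.5% higher and 25.8% lower. The lists were chosen with earlier results of these data known, and none was tested as a set.

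Sepp1 encodes selenoprotein P, the liver-made carrier that delivers selenium to brain, testis and other organs. Its mRNA is annotated with 10 selenocysteine codons, against 1 or 2 for every other mouse selenoprotein gene in the annotation. Sepp1 had 2212, 2153 and 2158 CPM in LRG1 replicates 1 to 3, against 6029, 6019 and 6255 CPM in PBS replicates 1 to 3. The highest LRG1 library was far below the lowest PBS library. The mean was 2174 ± 32.6 CPM with LRG1 and 6101 ± 133 CPM with PBS (SD, n = 3 each), a 2.81-fold lower level (log2 fold change -1.49, SE 0.0379, edgeR adjusted p = 1.65e-19). Sepp1 took 0.216 to 0.221% of all gene counts in LRG1 libraries and 0.600 to 0.617% in PBS libraries. In order of absolute log2 fold change it ranked 607 of 12301 genes. On the opposite strand, the exons of Ccdc152 overlap 15.4% of the Sepp1 exon length, and Ccdc152 had 3 counts in all 6 libraries together.

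Ahsg encodes fetuin-A, an abundant plasma glycoprotein that binds calcium phosphate and can inhibit the insulin receptor. It had 1446, 1300 and 1356 CPM in the 3 LRG1 libraries, against 2093, 1965 and 2202 CPM in the 3 PBS libraries. The groups did not overlap. The mean was 1367 ± 73.9 CPM with LRG1 and 2087 ± 119 CPM with PBS (SD, n = 3 each), 1.53-fold lower with LRG1 (log2 fold change -0.61, SE 0.0452, edgeR adjusted p = 5.65e-11). An antisense gene, Gm30505, overlaps 2.82% of its exon length and was not analysed here.

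Fetub encodes fetuin-B, the closest relative of fetuin-A and an inhibitor of astacin-type proteases. It had 193, 184 and 173 CPM in LRG1 libraries, against 185, 188 and 207 CPM in PBS libraries, and the groups overlapped. The log2 fold change was -0.08 with a 95% interval from -0.173 to 0.022 (edgeR adjusted p = 0.187). In each library the ratio of the neighbouring pair does not depend on library scaling. There were 7.49, 7.07 and 7.82 Ahsg counts for each Fetub count in LRG1 libraries, against 11.3, 10.5 and 10.6 in PBS libraries, without overlap. The difference in mean log2 ratio was -0.53, with means of 2.90 ± 0.0733 for LRG1 and 3.43 ± 0.0598 for PBS (SD, n = 3 each; exact permutation test, 2-sided, p = 0.1, the smallest that 3 against 3 libraries allow).

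The fetuin genes lie in a row with 3 relatives that share the cystatin-like fold, in the order Ahsg, Fetub, Hrg, Kng2 and Kng1. Hrg encodes histidine-rich glycoprotein, and the kininogens encoded by Kng1 and Kng2 are precursors of bradykinin. Kng2 fell to 136 ± 2.89 CPM with LRG1, against 232 ± 7.87 CPM with PBS (log2 fold change -0.77, edgeR adjusted p = 8.34e-14). Kng1 had 509.9 ± 16.1 CPM with LRG1 and 655 ± 22.4 CPM with PBS (log2 fold change -0.36, edgeR adjusted p = 3.52e-08). Hrg had 48.2 ± 3.26 CPM with LRG1 and 53.4 ± 4.66 CPM with PBS and did not pass (log2 fold change -0.15, edgeR adjusted p = 0.0543), though in some alternatives 3 of the listed relatives were lower. Kng1 and Kng2 are close copies of each other, so how reads were split between them is uncertain. Along the row, genes that fell stood beside genes that did not pass. In the list of fetuin and kininogen relatives, which adds the protease inhibitors Cst3 and Cstb, 2 of 5 tested genes fell, 1 rose and 2 did not pass. Among all tested genes 25.8% fell and 25.5% rose. The median log2 fold change of the list was -0.15. The higher one was Cstb, which encodes the intracellular inhibitor cystatin B, at 758 ± 16.0 CPM with LRG1 and 532 ± 36.4 CPM with PBS.

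**Figure D2:**
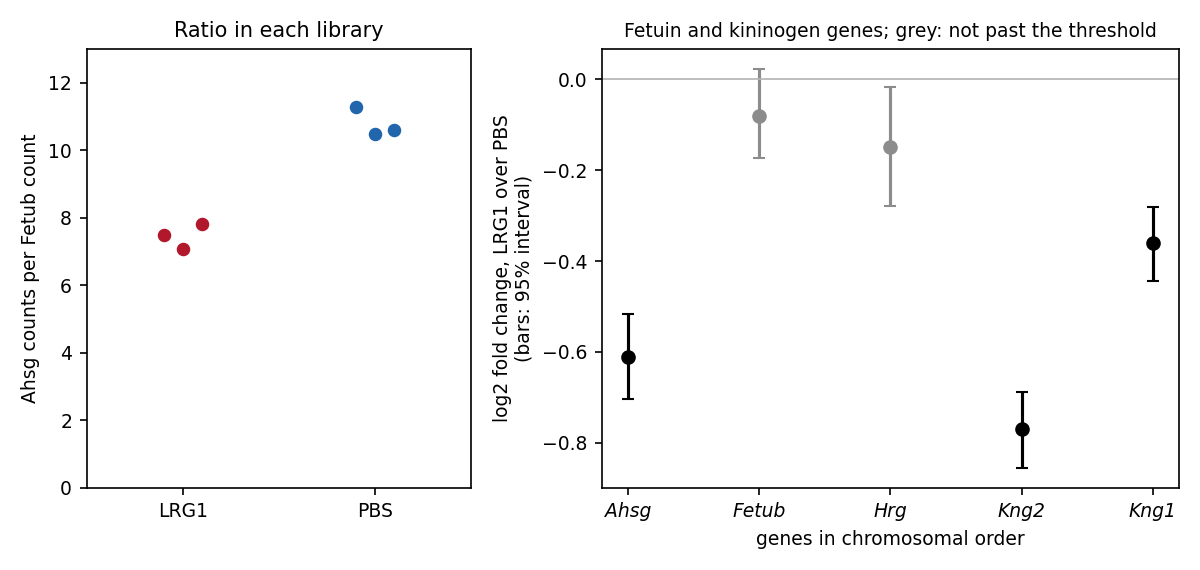
Left, Ahsg counts per Fetub count in each library, LRG1 in red and PBS in blue, on a linear axis from 0. Right, log2 fold change of LRG1 over PBS with its 95% interval for the 5 genes in chromosomal order, black where the adjusted p was below 0.05 and grey where it was not; Kng2 was lowest at -0.77 and Fetub nearest to 0 at -0.08.

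Gdf15 encodes growth differentiation factor 15, a stress-induced hormone. It had 38.4, 39.7 and 40.3 CPM in LRG1 libraries, against 59.1, 55.1 and 59.4 CPM in PBS libraries. All LRG1 libraries were below all PBS libraries, and the mean was 39.5 ± 0.961 CPM with LRG1 and 57.8 ± 2.39 CPM with PBS (SD, n = 3 each; 1.47-fold lower, log2 fold change -0.55, SE 0.0538, edgeR adjusted p = 7.01e-09). A list held 14 genes of the integrated stress response and of p53 targets, pathways known to induce Gdf15. In it 9 fell, 4 rose and 1 did not pass, while 25.8% of all tested genes fell and 25.5% rose. The median log2 fold change of the list was -0.18. Among the lower ones were Chac1, which degrades glutathione, at 7.85 ± 0.623 CPM with LRG1 and 17.0 ± 1.31 CPM with PBS, and the transcription factor gene Atf5 at 150.8 CPM with LRG1 and 283.5 CPM with PBS. Atf4, which encodes the central factor of that response, had a log2 fold change of -0.21 (edgeR adjusted p = 6.09e-05). The higher ones included the stress gene Nupr1, at 8.39 ± 0.631 CPM with LRG1 and 4.86 ± 0.925 CPM with PBS, and Mdm2, the ubiquitin ligase of p53, at 175 ± 6.16 CPM with LRG1 and 137.5 ± 2.63 CPM with PBS. The p53 targets went both ways, since Cdkn1a also rose (log2 fold change 0.17) while Ccng1 and Bbc3 fell (-0.14 and -0.18).

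Hgfac encodes the serine protease HGF activator, made by the liver as an inactive precursor. It had 183, 173 and 176 CPM in LRG1 libraries, against 199, 209 and 223 CPM in PBS libraries. The groups did not overlap, but the step was the smallest of the 6 that passed, at 1.19-fold lower (log2 fold change -0.25, SE 0.0433, edgeR adjusted p = 4.40e-05). The means were 177 ± 5.44 CPM with LRG1 and 210.4 ± 11.8 CPM with PBS. Of 12 tested genes of HGF activation and its receptor MET, 8 fell, 2 rose and 2 did not pass. The shares over all tested genes were 25.8% lower and 25.5% higher. The median log2 fold change of the list was -0.29. Klkb1, plasma prekallikrein, had 3.36 ± 0.178 CPM with LRG1 and 9.15 ± 0.788 CPM with PBS. Met had 148 ± 2.71 CPM with LRG1 and 228 ± 2.26 CPM with PBS. Plau, urokinase, was higher, at 6.58 ± 0.321 CPM with LRG1 and 3.78 ± 0.187 CPM with PBS. St14, the membrane protease matriptase, was also higher (log2 fold change 0.34, edgeR adjusted p = 0.018), but not by DESeq2 (adjusted p = 0.059), without LRG1 replicate 2 (adjusted p = 0.0776) or without PBS replicate 1 (adjusted p = 0.0707). Hgf itself, a product mainly of non-parenchymal cells, had only 0.531 ± 0.360 CPM with LRG1 and 0.610 ± 0.142 CPM with PBS.

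The rising hepatokines were both scarce. Lect2 encodes leukocyte cell-derived chemotaxin 2, a hepatokine that binds MET and the endothelial receptor TIE1. It had 13.1, 11.5 and 14.6 CPM in LRG1 libraries, against 6.98, 7.38 and 7.91 CPM in PBS libraries. The lowest LRG1 library was above the highest PBS library, and the mean was 13.1 ± 1.52 CPM with LRG1 and 7.42 ± 0.463 CPM with PBS (SD, n = 3 each; 1.75-fold higher, log2 fold change 0.81, SE 0.11, edgeR adjusted p = 1.29e-06). The raw counts behind it were 263, 267 and 289 in LRG1 libraries and 138, 137 and 149 in PBS libraries.

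Enho encodes adropin, a short secreted peptide. It had 18.1, 15.5 and 15.4 CPM in LRG1 libraries, against 7.89, 9.54 and 7.48 CPM in PBS libraries. Again the groups did not overlap, with means of 16.3 ± 1.54 CPM for LRG1 and 8.31 ± 1.09 CPM for PBS (SD, n = 3 each; 1.97-fold higher, log2 fold change 0.98, SE 0.106, edgeR adjusted p = 3.94e-08). Of all tested genes, 95.8% had a lower log2 fold change than Enho and 94.7% a lower one than Lect2. Dnaic1 overlaps Enho on the opposite strand over 15 bases, and had 1 to 9 counts per library.

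**Figure D3:**
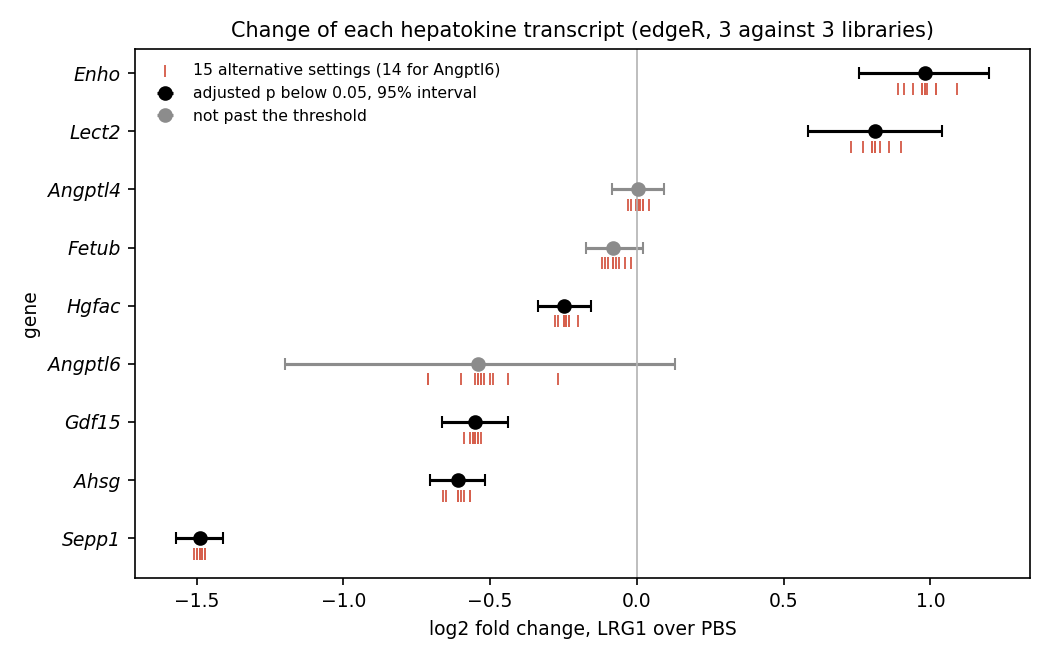
Log2 fold change of LRG1 over PBS for the 9 hepatokines, with 95% intervals from edgeR, black where the adjusted p was below 0.05 and grey where it was not. Red ticks give the values under the alternative settings; Enho is highest at 0.98 and Sepp1 lowest at -1.49.

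Angptl4, which encodes an inhibitor of lipoprotein lipase and is a classical target of PPAR nuclear receptors, had nearly equal means in the 2 groups. It had 118, 123 and 113 CPM in LRG1 libraries and 114, 120 and 119 CPM in PBS libraries, and the groups overlapped. The log2 fold change was 0.0039, with a 95% interval from -0.086 to 0.094 (edgeR adjusted p = 0.949). Other PPAR target genes of the list moved in both directions. Of 16 tested, 8 fell, 4 rose and 4 did not pass, against 25.8% lower and 25.5% higher among all tested genes. The median log2 fold change of the 16 was -0.21. Pdk4, a kinase that shuts off pyruvate dehydrogenase, had 43.9 ± 2.33 CPM with LRG1 and 26.3 ± 1.19 CPM with PBS. Cpt1a was lower, with a log2 fold change of -1.12, and Acot1, an acyl-CoA thioesterase gene with close paralogs whose counts are uncertain, had 0.652 ± 0.0463 CPM with LRG1 and 1.44 ± 0.401 CPM with PBS.

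Angptl6, which encodes angiopoietin-related growth factor, was the scarcest of the 9. Its raw counts were 11, 18 and 12 in LRG1 libraries and 17, 13 and 24 in PBS libraries, and the groups overlapped. The mean was 0.643 ± 0.120 CPM with LRG1 and 0.945 ± 0.296 CPM with PBS (SD, n = 3 each). The log2 fold change was -0.54 with a 95% interval from -1.20 to 0.129 (edgeR adjusted p = 0.171), an interval that holds both no change and a change as large as that of Gdf15. Without PBS replicate 3 the log2 fold change was -0.27. The exons of A230050P20Rik, which had 550 to 678 counts per library, overlap 16.8% of the Angptl6 exon length on the opposite strand. The log2 ratio of Angptl4 to Angptl6 counts averaged 7.48 ± 0.213 in LRG1 libraries and 6.97 ± 0.429 in PBS libraries (SD, n = 3 each), a difference of 0.52 that the exact permutation test, 2-sided, did not separate from the spread (p = 0.2). Without PBS replicate 3 that difference was 0.29.

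Of the other genes around the angiopoietin-like proteins and lipoprotein lipase, 8 of 12 tested fell, 2 rose and 2 did not pass. Over all tested genes 25.8% fell and 25.5% rose. The median log2 fold change of the 12 was -0.68. Gm6484, the row that the RefSeq table pairs with Angptl8, which takes part in lipase inhibition, had 7.32 ± 0.906 CPM with LRG1 and 16.1 ± 2.20 CPM with PBS. Lipg, endothelial lipase, was scarce, at 0.328 ± 0.0933 CPM with LRG1 and 1.32 ± 0.410 CPM with PBS. Furin, a protease that cleaves angiopoietin-like proteins, had 686 ± 23.2 CPM with LRG1 and 426 ± 18.2 CPM with PBS, and Angptl2 had 5.36 ± 0.893 CPM with LRG1 and 1.497 ± 0.387 CPM with PBS. Angptl1 and Angptl7 had no count in any library; a count of 0 allows a level of up to 0.130 to 0.162 CPM per library, for counting error only.

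**Figure D4:**
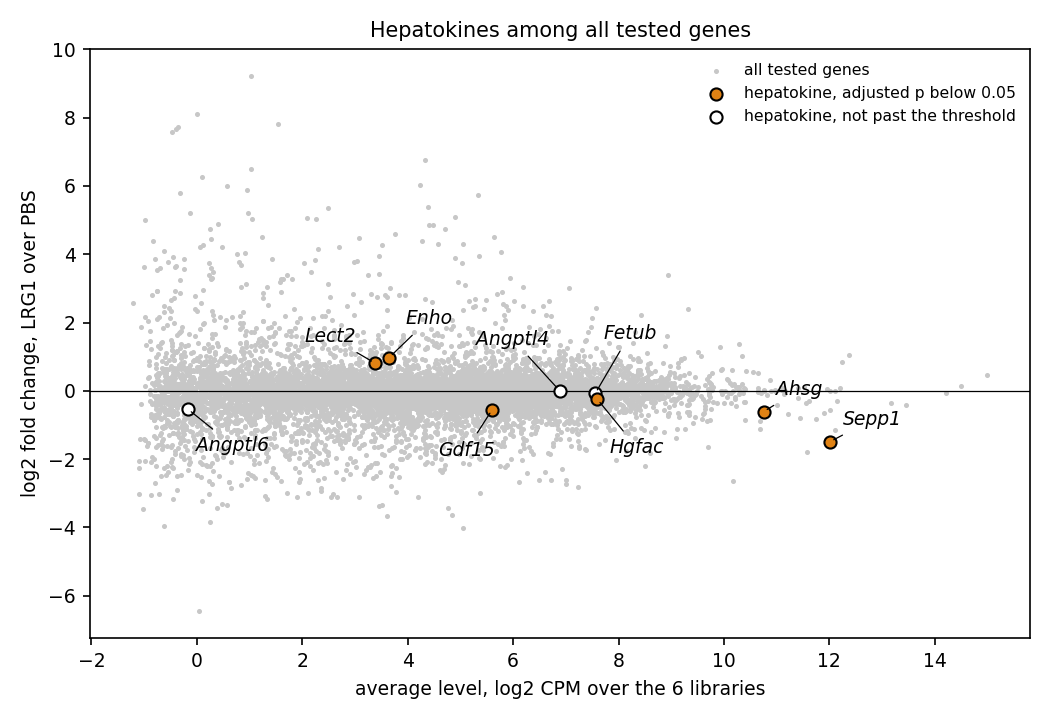
Each tested gene by its average level (x axis, log2 CPM over 6 libraries) and its log2 fold change of LRG1 over PBS (y axis). Hepatokines are circled, orange where the adjusted p was below 0.05; Sepp1 at -1.49 and Ahsg at -0.61 lie at the right among the most abundant transcripts, and Angptl6 at the far left.

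Levels of different genes were compared per kilobase of exon. With LRG1 the order was Sepp1 (765 CPM per kb), Ahsg (622), Fetub (93.5), Hgfac (52.0), Angptl4 (33.3), Gdf15 (21.3), Lect2 (14.2), Enho (12.9) and Angptl6 (0.407). With PBS it was Sepp1 (2147 CPM per kb), Ahsg (950), Fetub (98.6), Hgfac (61.7), Angptl4 (33.3), Gdf15 (31.2), Lect2 (8.08), Enho (6.54) and Angptl6 (0.597). The order was the same in both groups. Lect2 and Enho did not differ beyond their spread in LRG1 libraries, where they ran from 12.5 to 15.8 and from 12.1 to 14.3 CPM per kb. In PBS libraries they ran from 7.60 to 8.60 and from 5.90 to 7.52 CPM per kb, without overlap, and there Angptl4, at 32.2 to 34 CPM per kb, stood just above Gdf15, at 29.7 to 32.1. Among 22165 genes with an exon length, Sepp1 ranked 34 by level with LRG1 and 13 with PBS, and Ahsg ranked 39 with LRG1 and 25 with PBS. Together the 9 transcripts made up 0.402 to 0.423% of gene counts in LRG1 libraries and 0.854 to 0.896% in PBS libraries. Sepp1 and Ahsg supplied 86.3 to 86.8% of that sum with LRG1 and 93.1 to 93.4% with PBS, so the sum follows these 2 genes.

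Since Sepp1 is a selenoprotein, a list of other selenoprotein genes was set beside it. The list does not hold every annotated selenoprotein gene. Of 19 tested, 8 fell, 5 rose and 6 did not pass, against 25.8% lower and 25.5% higher among all tested genes. The median log2 fold change of the 19 was -0.01. Dio1, the deiodinase that activates thyroid hormone, had 3.11 ± 0.547 CPM with LRG1 and 12.2 ± 0.409 CPM with PBS, and Gpx1, the cytosolic glutathione peroxidase, had 1159 ± 46.4 CPM with LRG1 and 2126 ± 53.3 CPM with PBS. In the other direction Gpx3, the secreted glutathione peroxidase of plasma, had 65.0 ± 2.54 CPM with LRG1 and 11.6 ± 1.93 CPM with PBS (log2 fold change 2.49, edgeR adjusted p = 1.36e-17). Sepp1 and Gpx3, which both encode secreted selenoproteins, thus moved in opposite directions. Selm, an ER-resident selenoprotein, had 3.69 ± 0.355 CPM with LRG1 and 2.34 ± 0.256 CPM with PBS. Of 10 genes for selenoprotein synthesis, Sephs2 counted in both lists, 4 were lower and 6 did not pass. Their median log2 fold change was -0.08, and 25.8% of all tested genes were lower. Eefsec, the elongation factor for selenocysteine, had 36.4 ± 1.73 CPM with LRG1 and 52.4 ± 2.87 CPM with PBS, and Sephs2, which makes the selenium donor, had 203 ± 7.75 CPM with LRG1 and 269.5 ± 11.3 CPM with PBS. Without PBS replicate 2 the count of lower genes in that list was 2.

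Receptors and partners of these hepatokines were also looked up in the same cells. Of 11 tested, 5 fell, 3 rose and 3 did not pass, against 25.8% lower and 25.5% higher among all tested genes. The median log2 fold change of the 11 was -0.20. Insr, the insulin receptor gene, had 128.5 ± 2.47 CPM with LRG1 and 203 ± 5.68 CPM with PBS, and Lpl, lipoprotein lipase, had 4.00 ± 0.399 CPM with LRG1 and 6.97 ± 1.26 CPM with PBS. Lrp1, a large endocytic receptor, had 709.9 ± 35.3 CPM with LRG1 and 406 ± 40.5 CPM with PBS. Ret, the signalling partner of the GDF15 receptor, had 1.95 ± 0.388 CPM with LRG1 and 0.195 ± 0.137 CPM with PBS (log2 fold change 3.30, edgeR adjusted p = 1.27e-07), from raw counts of 31, 46 and 46 in LRG1 libraries and 1, 6 and 4 in PBS libraries. Gfral, the GDF15 receptor gene, had no count in any library, and Lrp8, a selenoprotein P receptor, had 23.4 ± 3.49 CPM with LRG1 and 31.7 ± 1.63 CPM with PBS. Of the other listed partners Cd209a had no count in any library, and Lrp2 was too scarce to be tested. Lrp8, Atf4, Hgf, Hrg, Cdkn1a, Ccng1, Bbc3, Spp1, Alb, Apoa1, Hnf4a and Cyp2e1 were named after their values were seen.

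Among 28 tested genes for other secreted liver proteins, 18 fell, 2 rose and 8 did not pass, and the median log2 fold change was -0.59. Over all tested genes 25.8% fell and 25.5% rose. Shbg, which encodes the sex hormone carrier of plasma, had no count in any library. Serpina7, thyroxine-binding globulin, had 130.0 ± 11.2 CPM with LRG1 and 437 ± 34.4 CPM with PBS. Gpnmb, a glycoprotein that can be shed from the cell surface, had 27.9 ± 3.81 CPM with LRG1 and 86.0 ± 17.5 CPM with PBS. The 2 higher ones differed by small amounts: Thpo, thrombopoietin, had 30.3 ± 1.67 CPM with LRG1 and 26.4 ± 0.788 CPM with PBS, and Tsku, tsukushi, had 102.8 ± 4.70 CPM with LRG1 and 92.6 ± 7.10 CPM with PBS. Both passed with all libraries (edgeR adjusted p = 0.0152 for Thpo and adjusted p = 0.018 for Tsku) and both lost the call without LRG1 replicate 1 (adjusted p = 0.0638 and adjusted p = 0.084) or without LRG1 replicate 2 (adjusted p = 0.0589 and adjusted p = 0.0647). Thpo also lost it without PBS replicate 1 (adjusted p = 0.0546) and Tsku without PBS replicate 2 (adjusted p = 0.127).

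**Figure D5:**
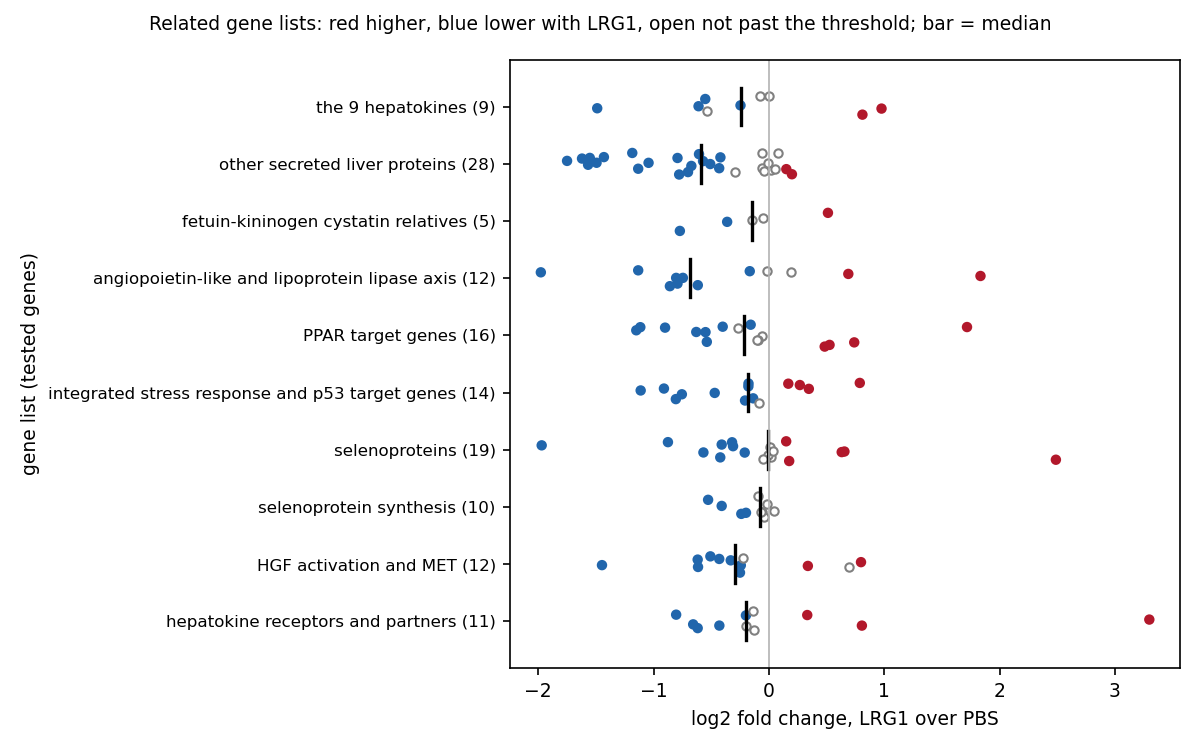
Log2 fold change of LRG1 over PBS (x axis) for each tested gene of the hepatokines and of the 9 related lists (rows), with the number tested in brackets. Red dots are higher and blue dots lower with LRG1 at an adjusted p below 0.05, open dots did not pass, and black bars are medians; the other secreted liver proteins have a median of -0.59 and the hepatokines one of -0.25.

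The genes whose profile over the 6 libraries was most like that of the hepatokine with the lowest fold change, Sepp1, were Rassf3 (Pearson r of 1 after rounding), Faah (r = 0.9999) and Ugdh (r = 0.9998) on the log2 CPM scale. For the one with the highest fold change, Enho, they were Edem2 (r = 0.9987), Eif2d (r = 0.9972) and Abcb1b (r = 0.9968). These values mainly restate the split by treatment: of 9259 genes compared, 1358 had an r above 0.95 with Sepp1 and 756 with Enho.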

How the data were processed

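Libraries of 3 LRG1 and 3 PBS samples were used. The submitters' processing notes name bcl2fastq, TopHat2, HTSeq and build mm9, without versions; the annotation and the strand setting of counting were not given in the sources used here. Library preparation kept strand, per the labels' protocols, but with the setting unknown overlapping antisense genes cannot be told apart. The authors deposited unnormalized counts, 1 whole number for each gene symbol. The 5 HTSeq summary rows were kept out; of uniquely aligned reads 8.96 to 10.3% were in no gene and 0.258 to 0.280% ambiguous, and non-unique alignments made up 58.2 to 59.3% of row totals.

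Genes were kept by edgeR's filterByExpr (minimum count 10; 12301 genes, 99.95% of counts) and tested with edgeR 4.0.16 in R 4.3.3 (TMM, glmQLFit and glmQLFTest, treatment alone, Benjamini-Hochberg over all tested genes, threshold 0.05). SEs come from the F statistic, CPM from TMM-scaled libraries, exon lengths and overlaps from GENCODE M21 (GRCm38), which differs from mm9. Alternatives used DESeq2 1.42.0, limma 3.58.1 (voom), other scalings and filters, a replicate block and leaving out each library. Members and 9 gene lists were chosen with earlier results of these data known. Genes named are the 9 members and up to 2 highest and 2 lowest called genes per list, besides those said to be added. Listed genes without a count in any library, Lrp2, Cst3, overlapping genes and the genes of most like profile are named as well. One gene that this rule names is not reported here. No batch is named in the labels. Replicate counts differed by more than sampling noise (chi-square per degree of freedom 2.93 to 4.17).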

Additional observations from a re-analysis of the deposited data

How the results depend on the processing

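The calls and directions of the 6 hepatokines that passed (2 higher, 4 lower) were the same under all 15 alternatives, with log2 fold changes from -1.51 to -1.47 for Sepp1, -0.66 to -0.57 for Ahsg, -0.59 to -0.53 for Gdf15, -0.28 to -0.20 for Hgfac, 0.73 to 0.90 for Lect2 and 0.89 to 1.09 for Enho. Fetub (adjusted p from 0.0574 to 0.713) and Angptl6 (adjusted p from 0.0972 to 0.593) never passed; Angptl6 gave no value with at least 1 CPM in 3 libraries. Angptl4, at 0.0039, changed sign without LRG1 replicate 1 (-0.0021), without LRG1 replicate 2 (-0.03) and without PBS replicate 1 (-0.02), and ranged from -0.03 to 0.04 when single libraries were left out. With 1 library left out, the 2 other secreted liver proteins called higher became 0 to 2, the 4 lower genes of selenoprotein synthesis 2 to 4, and the 2 higher genes of HGF activation 1 to 3; DESeq2 called 1 in this last list. The number of all genes called ran from 2718 to 3391 higher and from 2864 to 3278 lower, in all 40.4 to 52.6% of the genes tested. The difference in log2 ratio ran from -0.57 to -0.50 for Ahsg over Fetub and from 0.29 to 0.72 for Angptl4 over Angptl6 when single libraries were left out. Same-numbered libraries did not deviate together (r = -0.124, -0.0124 and -0.123), so the numbers are not taken as pairs. With a replicate block, 2906 genes were higher and 2984 lower, 2 hepatokines higher and 4 lower, and no call of a hepatokine changed. With 3 libraries a group the exact tests cannot go below p = 0.1.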
